A study of Mus musculus with 3 samples.

Results

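Endothelial cells line the blood and lymph vessels, and in the palate libraries they were chosen by a rule on RNA. A cell barcode with at least 500 detected genes was kept when it held a unique molecular identifier (UMI, 1 counted RNA molecule) of at least 3 of the 8 endothelial genes Pecam1, Cdh5, Kdr, Emcn, Egfl7, Cldn5, Esam and Plvap, and none of Tyrobp (myeloid) or Epcam (epithelial). The rule kept 114 of 8107 barcodes. The tissue was the secondary palatal shelves of C57BL/6J mice, all wild type, taken on embryonic days E13.5, E14.5 or E15.5. There was 1 library per stage, and each pooled the tissue of 3 embryos that was minced, digested with TrypLE, fixed as a cell suspension in methanol and run on the 10x Genomics droplet platform. No genotype, strain or treatment differed between the libraries, so the comparisons are of stages, each seen once. No p-value can be given, and every interval covers counting error only.

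Endothelial cells grow into tissue as sprouts, and vascular endothelial growth factor made by other cells acts on their receptors Kdr and Flt1. Notch signalling between neighbouring endothelial cells limits how many lead a sprout, while transcription factors of the ETS and SoxF families maintain endothelial genes. Later, cells take on arterial, venous, capillary or lymphatic character, and blood flow acts on them through factors such as Klf2.

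The libraries held 4236, 2079 and 3113 barcodes, of which 3692, 1775 and 2640 had at least 500 genes. Endothelial barcodes numbered 13, 48 and 53, here and below in the order E13.5, then E14.5, then E15.5 where 3 values are given, and E14.5 before E15.5 where 2 are. These were 0.352% (exact Clopper-Pearson 95% interval 0.188 to 0.601%), 2.70% (2.00 to 3.57%) and 2.01% (1.51 to 2.62%) of each library. The share at E13.5 lay below the intervals of both later stages, and those of E14.5 and E15.5 overlapped. A share after dissociation can differ from that in the tissue, and how many embryos gave these cells is not recorded. E13.5 is given as counts beside the later stages, because 1 UMI in its 13 barcodes was worth 12.2 counts per 1000000 UMIs (CPM), against 5.44 and 4.66 CPM later.

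The endothelial barcodes were deeper than the rest. Their median UMI totals were 3036, 2706 and 3225, against 1986, 1878 and 1970 in the other barcodes of the same libraries. No endothelial barcode was shared between libraries. RNA of other cell types was present in some members and moves with several results below. At least 3 of 10 mesenchymal genes had a UMI in 2, 11 and 12 endothelial barcodes, and these held 30.2%, 44.9% and 33.4% of the endothelial UMIs. At least 3 of 8 neuronal genes had one in 7, 1 and 1. A UMI of Xist, the RNA that silences 1 X chromosome in female cells, was found in 11 of 13, 14 of 48 and 43 of 53 barcodes, so the mix of female and male embryos could not be told apart from stage.

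The marker lists of other cell types differed in how much RNA the members held. Mesenchymal genes summed to 588, 4352 and 1959 CPM in the members, with none of the 10 at 0 in any stage, against 792, 7624 and 8610 CPM in the other barcodes. Of 12 mural genes, which mark pericytes and smooth muscle, Rgs5, Kcnj8 and Tagln had no UMI in any member, while Abcc9 had 3, 10 and 4 and Notch3 had 0, 7 and 2. Higd1b and Vtn were at 0 too, but had at most 1 UMI in the mural barcodes of the later stages. The list summed to 85.7, 131 and 107 CPM. In the other barcodes it summed to 83.7, 228 and 326 CPM. The rule itself kept out barcodes with Tyrobp or Epcam, which lowers the myeloid and epithelial lists they belong to. The 10 myeloid genes gave 1, 2 and 4 UMIs in all, with Csf1r, Aif1 and Lyz2 at 0. The 8 megakaryocyte genes gave 1, 3 and 6 UMIs, and the 10 epithelial genes 2, 5 and 7. Globin and other erythroid genes summed to 2215, 6643 and 4179 CPM in the members, below the 13708, 10008 and 9020 CPM in the other barcodes.

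The label was checked on 22 endothelial genes that the rule did not use, among them Tie1, Tek, Flt1, Cd93 and Robo4. At least 3 of them had a UMI in 11 of 13, 47 of 48 and 51 of 53 members. The same held for 17, 34 and 56 of the barcodes that the rule did not keep, which are 0.462%, 1.97% and 2.16% of those barcodes. Barcodes with RNA of several endothelial genes thus lay outside the rule as well. Barcodes with 2 rule genes, just outside, had 484, 803 and 1677 CPM of these 22 genes summed. Barcodes with 3, just inside, had 2270, 4467 and 5218 CPM, and those with 4 or more had 2031, 4492 and 5141 CPM. At least 3 of the 22 genes had a UMI in 3 of 7, 5 of 11 and 13 of 25 of the barcodes with 2 rule genes.

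**Figure D1:**
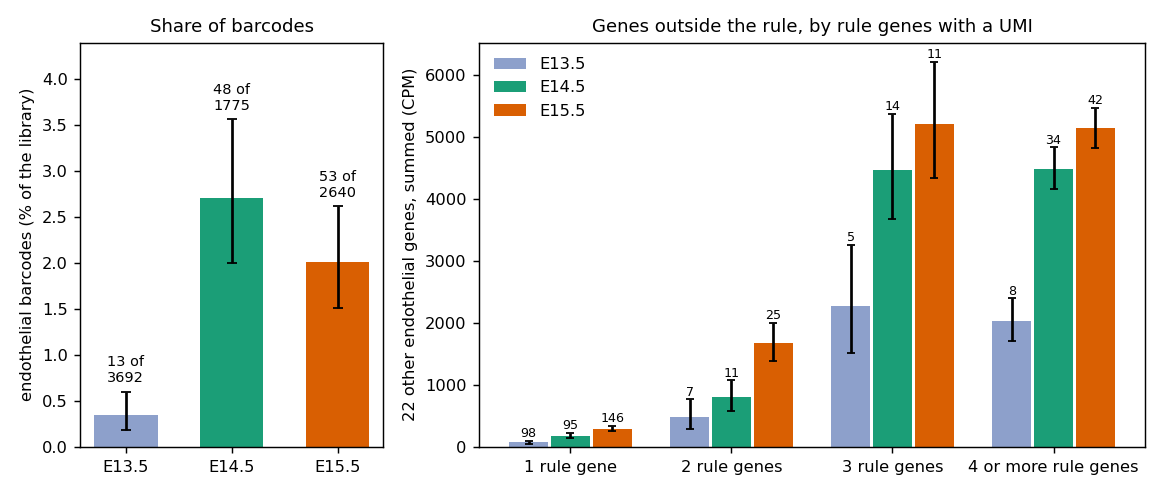
Left, endothelial barcodes as a percentage of the barcodes with at least 500 genes in each library, with exact Clopper-Pearson 95% intervals and counts. Right, summed level in CPM of 22 endothelial genes outside the rule, by the number of rule genes with a UMI, with exact Poisson 95% intervals and the number of barcodes above each bar. On this linear axis the bars of 3 and of 4 or more rule genes are near each other and above that of 2, which is itself above that of 1.

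The endothelial barcodes carried a broad endothelial programme at E14.5 and E15.5. A gene was called where it was at least 4-fold above the other barcodes of its library in both stages, with 1 CPM added and at least 20 UMIs in the members of the 2 stages together. Of 4215 genes with enough UMIs, 186 passed, or 4.41%, and the counts past 4-fold of each list below stand beside this share. The minimum is set on the members' own counts, so in every list it favours genes that are high in them. All 8 rule genes passed, as the choice of barcodes makes likely, and so did all 21 of the 22 other endothelial genes that had enough UMIs. Because the members were chosen by RNA of the same cells, these folds are a description and not a test. Gpr182 alone of the 22 had too few UMIs, with 1 in each library.

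Among these genes, Tek encodes the angiopoietin receptor. It had 318, 316 and 313 CPM in the members. The other barcodes had 6.34 and 5.63 CPM in the later stages, so that Tek was 43.2-fold and 47.3-fold above them. The 3 levels of Tek lay within each other's intervals (208 to 466, 240 to 408 and 242 to 397 CPM).

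Tie1, its co-receptor, had 49.0, 142 and 177 CPM, and the intervals of E14.5 and E15.5 overlapped. Cd93, a surface protein of sprouting endothelium, had 85.7, 375 and 392 CPM, against 2.66 and 3.67 CPM in the other barcodes of the later stages. Flt1, a receptor that binds vascular endothelial growth factor tightly, had 135, 734 and 662 CPM. For Cd93 and Flt1 the E13.5 level lay below the intervals of both later stages, and the later stages overlapped.

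Myct1 was 73.2-fold and 101-fold above the other barcodes, and Robo4, an endothelial roundabout receptor, 51.4-fold and 71.0-fold. S1pr1, the sphingosine-1-phosphate receptor, had the lowest fold of the 21 in both stages, with 180 and 159 CPM in the members and 32.1 and 28.0 CPM in the other barcodes. Calcrl, the receptor that Ramp2 partners, was 6.41-fold and 6.99-fold above.

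**Figure D2:**
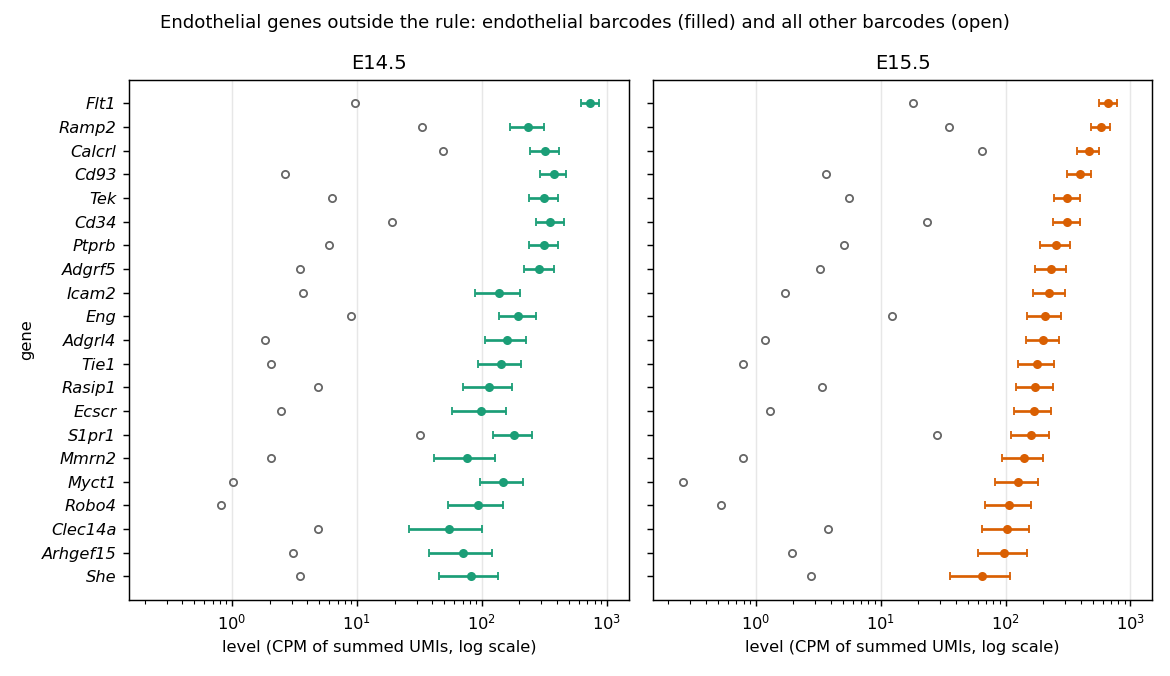
Level in CPM of summed UMIs (log axis) of the 21 endothelial genes outside the rule that had at least 20 UMIs, at E14.5 (left) and E15.5 (right), in endothelial barcodes (filled, with exact Poisson 95% intervals) and in all other barcodes (open). Every filled point lies right of its open point, from Tie1 and Myct1 far apart to S1pr1 and Calcrl close together.

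Seen per barcode, none of the 22 genes had a UMI in every member. Flt1 had one in the most members, 37 of 48 and 38 of 53. Tek had one in 56.2% and 60.4%, and Cd93 in 64.6% and 60.4%. In barcodes chosen by mesenchymal genes the shares were 0.352% and 0.684% for Tek and 0.0879% and 0.285% for Cd93, at median UMI totals of 1880 and 2034.5. The members with mesenchymal RNA were left out of these barcodes, which lowers their shares. After each barcode was thinned to 1500 UMIs, Tek was found in 45.9% and 38.1% of the 37 and 42 members deep enough, and in 0.141% and 0.267% of the mesenchymal barcodes. For Cd93 the thinned shares were 43.2% and 42.9%, against 0.141% and 0.0890%. Thinning left out 11 members in each of the 2 stages, and 431 and 630 mesenchymal barcodes.

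Promoters of these genes are shown because ETS factors, described next, are known to bind a GGAA core in endothelial promoters. Of the 30 genes of the rule and the list of 22, 17 had an entry in the RefSeq promoter table (build GRCm38.p6, the mm10 assembly), with 20 start sites in all. For 8 of the 20, the first 20 bases after the start also open a transcript of the GENCODE set, and those of the rest do not. The 250 bases before the start are printed 5′ to 3′ on the gene's strand for 4 genes, with matches to AGGAAG or CGGAAG, read on either strand, in capitals. Eng and Emcn held 2 matches to AGGAAG each, Tie1 held 1 of each hexamer, and Kdr held neither of these but matched other strings of the search, given below. The hexamers and the 4 genes were picked after the shares given below them were seen.
Eng: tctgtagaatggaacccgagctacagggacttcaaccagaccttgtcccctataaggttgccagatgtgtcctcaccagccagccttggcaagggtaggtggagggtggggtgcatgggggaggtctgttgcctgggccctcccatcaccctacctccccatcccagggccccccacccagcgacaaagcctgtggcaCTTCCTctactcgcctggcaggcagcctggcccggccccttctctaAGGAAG
Emcn: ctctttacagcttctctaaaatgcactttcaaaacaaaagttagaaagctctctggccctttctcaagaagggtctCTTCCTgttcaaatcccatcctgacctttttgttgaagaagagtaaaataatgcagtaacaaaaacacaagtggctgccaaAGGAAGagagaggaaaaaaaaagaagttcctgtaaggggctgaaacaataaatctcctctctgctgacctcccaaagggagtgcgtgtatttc
Tie1: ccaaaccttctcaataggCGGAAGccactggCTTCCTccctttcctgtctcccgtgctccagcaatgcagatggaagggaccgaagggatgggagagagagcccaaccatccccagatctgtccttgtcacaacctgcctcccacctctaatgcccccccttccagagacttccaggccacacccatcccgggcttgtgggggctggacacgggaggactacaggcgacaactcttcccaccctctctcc
Kdr: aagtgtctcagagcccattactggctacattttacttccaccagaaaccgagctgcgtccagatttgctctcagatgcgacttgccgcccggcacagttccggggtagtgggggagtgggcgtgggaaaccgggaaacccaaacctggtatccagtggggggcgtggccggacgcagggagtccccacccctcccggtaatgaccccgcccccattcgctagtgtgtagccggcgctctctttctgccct
These windows lie at chr2:32646345-32646594 (+ strand, Eng), chr3:137340828-137341077 (+ strand, Emcn), chr4:118489850-118490099 (- strand, Tie1) and chr5:75978456-75978705 (- strand, Kdr). In all, 7 strings were searched on both strands, and the 3 longest contain shorter strings of the set. AGGAAG was present in 12 of the 20 endothelial windows (60%) and in 29.5% of all 32851 windows of the same length, and CAGGAAG in 8 of 20 and 10.8%. GGAAGT was in 8 of 20 against 19.7%, and GGAAAC in 8 of 20 against 16.3%, and the Kdr window held both of these. CGGAAG was in 2 of 20 against 13.6%, while CCGGAAG and ACCGGAAGT were in 0 of 20 against 6.91% and 0.804%. A match describes the letters and does not show a bound site.

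Of 22 endothelial transcription factors, 15 had enough UMIs and 8 were past 4-fold in both stages. All 15 were above the other barcodes by some fold, as were 43.6% of the 4215 genes. The ETS factor Fli1 had 220, 473 and 602 CPM, against 42.1 and 38.5 CPM in the other barcodes of the later stages. Ets1, of the same family, had 184, 446 and 411 CPM, against 32.1 and 29.7 CPM. Erg, often used to stain endothelial nuclei, was 2.36-fold and 5.05-fold above, and so did not pass in both stages.

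The SoxF factor Sox17 was 81.6-fold and 68.2-fold above, with 24 UMIs in each of the later stages. The other SoxF factors, Sox18 and Sox7, had 17 and 15 UMIs, and 7 and 10. Etv2, which starts the endothelial programme in the early embryo, had no UMI in any member. Gata2, needed for blood and lymphatic valve development, had 2, 0 and 2 UMIs.

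Receptors and ligands of the growth factor pathways differed in where their RNA was found. Of the Vegf list, the receptors Kdr, Flt1 and Flt4 were past 4-fold, of 6 genes with enough UMIs. Kdr, a rule gene, had 318, 452 and 564 CPM in the members. The ligand Vegfa had 4 UMIs in the members at each later stage (21.8 and 18.7 CPM), against 53.0 and 53.1 CPM in barcodes chosen by mesenchymal genes. Members with mesenchymal RNA held 3 of the 4 Vegfa UMIs in both stages. The ligand Vegfc had 76.2 and 60.6 CPM in the members and 76.3 and 92.1 CPM in the mesenchymal barcodes, so the 2 groups were near each other at E14.5. Members with mesenchymal RNA held 5 of its 14 and 11 of its 13 UMIs. The co-receptor Nrp1 was in both groups of barcodes, with 419 and 532 CPM in the members and 186 and 296 CPM in the mesenchymal barcodes.

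Tek, Tie1 and Ptprb, the phosphatase that restrains Tek, were the 3 of 4 genes of the angiopoietin list past 4-fold. Angpt1, the ligand that activates Tek, was the fourth. It had 92.5 and 79.3 CPM in the members, 399 and 352 CPM in the mesenchymal barcodes and 481 and 236 CPM in those chosen by mural genes. All 17 Angpt1 UMIs of the members in each later stage lay in those with mesenchymal RNA, and the others had 0. Angpt2, the ligand that sprouting endothelium releases, had 1 UMI in the members of each later stage.

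Pdgfb, by which endothelium recruits pericytes, had 125 and 103 CPM in the members and 1.41 and 1.42 CPM in the mesenchymal barcodes. Its receptor Pdgfrb had 16.3 and 32.7 CPM in the members and 190 and 206 CPM in the mural barcodes, which it helped to choose. All 3 and 7 of its UMIs in the members lay in those with mesenchymal RNA. Of 15 guidance and chemokine genes with enough UMIs 8 were past 4-fold, beside 4.41% of all genes, among them Plxnd1, a semaphorin receptor, at 19.6-fold and 17.3-fold, and Aplnr, the apelin receptor, at 53.7-fold and 109-fold. Sema3e, the ligand of Plxnd1, had 92.5 and 51.3 CPM in the members against 161 and 131 CPM in the mesenchymal barcodes, and all 17 and 11 of its UMIs in the members lay in those with mesenchymal RNA. The receptor Cxcr4 had 49.0 and 37.3 CPM in the members and its ligand Cxcl12 43.5 and 46.6 CPM, while Cxcl12 in the mesenchymal barcodes reached 182 and 199 CPM. Members with mesenchymal RNA held 4 of 8 and 8 of 10 of the Cxcl12 UMIs.

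**Figure D3:**
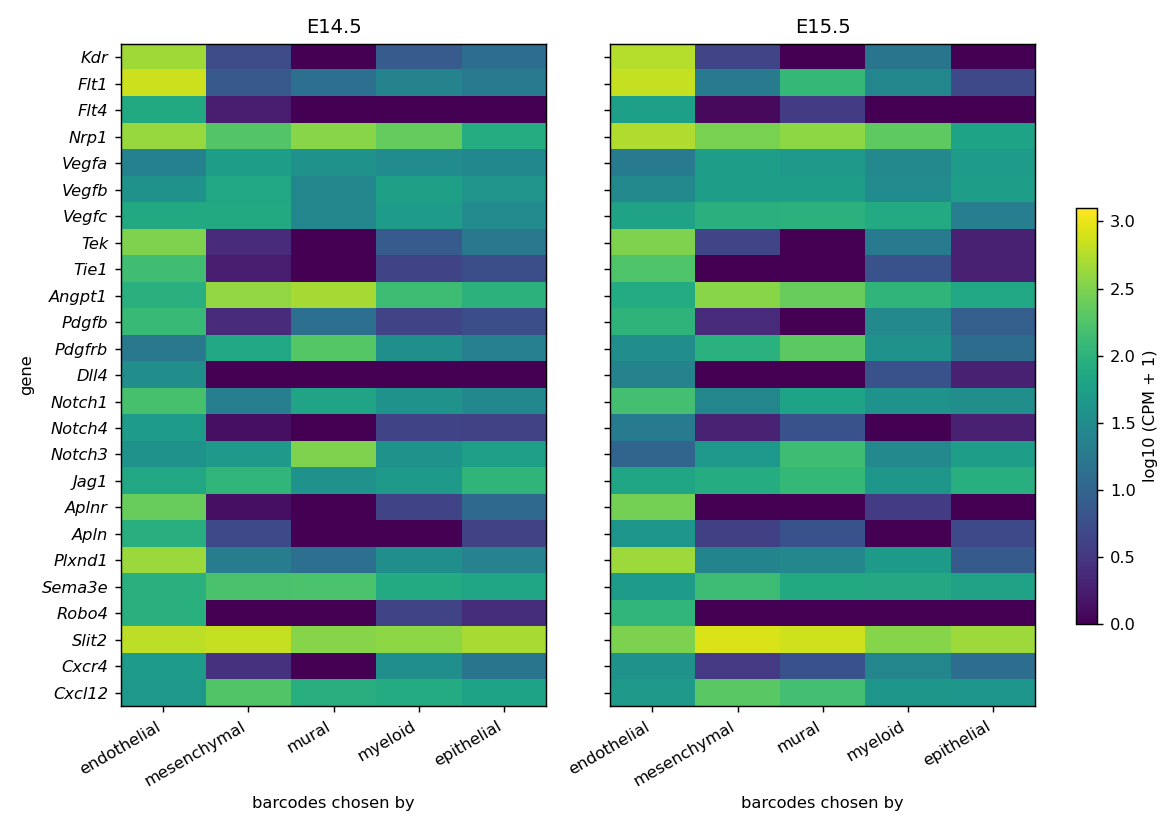
Level, as log10 of CPM plus 1, of 25 ligand and receptor genes in endothelial barcodes and in barcodes outside them chosen by mesenchymal, mural, myeloid or epithelial genes, at E14.5 (left) and E15.5 (right). Kdr, Flt1, Flt4, Tek, Tie1, Pdgfb, Dll4, Aplnr, Plxnd1 and Robo4 are brightest in the endothelial column, and Angpt1, Pdgfrb and Cxcl12 are brighter in the mesenchymal or mural columns. At E14.5 the mural column holds 15 barcodes.

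In the Notch list 6 of 15 genes had enough UMIs, and Notch1 was past 4-fold, at 5.76-fold and 4.93-fold. The endothelial ligand Dll4 had 6 and 5 UMIs and the endothelial receptor Notch4 had 9 and 4, none with enough for a ratio. The target Hes1 had 375 and 662 CPM in the members and 484 and 508 CPM in the other barcodes. In the Bmp and Tgfb list the co-receptor Eng and the receptor Tgfbr2 were the 2 of 10 past 4-fold. Acvrl1, the endothelial Bmp9 receptor, had 7 and 8 UMIs.

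Of 11 junction genes with enough UMIs, 5 were past 4-fold, beside 4.41% of all genes. Cdh5, Pecam1, Cldn5 and Esam belong to the rule, and the gap junction gene Gja4 was the fifth. Of the tight junction genes Tjp1 was 4.84-fold and 3.65-fold above, and Ocln had 0, 1 and 0 UMIs. The 11 genes of the barrier transport list summed to 539 and 536 CPM in the members and 268 and 287 CPM in the other barcodes, and Abcg2, an efflux pump, gave 42 and 55 of the 99 and 115 UMIs. Cldn5, which the rule used, gave 16 and 26 of them, so part of the difference follows from the choice of barcodes. Mfsd2a had 1, 0 and 0 UMIs, Slco1c1 0, 0 and 1, Slco1a4 0 in each, and Slc2a1, the glucose transporter, 4, 9 and 8. Cldn5 and Abcg2 were the 2 of 3 with enough UMIs that passed 4-fold. Of the Wnt list, which holds ligands, receptors and targets of barrier induction, 4 of 17 genes had enough UMIs and none passed. Leukocyte adhesion genes Cd34, Icam2 and Podxl passed, while Selp had no UMI and Sele and Vcam1 had 1 or fewer in each stage.

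Of 12 basement membrane genes 11 had enough UMIs and 4 passed. All 11 were above the other barcodes by some fold, beside the same 43.6% of all genes. Col4a1, a chain of the network collagen of all basement membranes, had 465, 1197 and 1119 CPM, against 117 and 135 CPM in the other barcodes of the later stages. Col15a1 was 31.2-fold and 30.4-fold above, and Col18a1, the source of endostatin, had 457 and 406 CPM against 32.9 and 36.0 CPM. Col4a2 was the fourth, at 7.67-fold and 5.91-fold.

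Outside all lists, the genes with the largest lower fold of the 2 stages were Zfp366, Ctla2a, Ushbp1, Rasgrp3 and Klhl4. Zfp366 encodes a zinc finger protein and was 59.1-fold and 68.8-fold above the other barcodes. Rasgrp3, an exchange factor for Ras proteins, had 239 and 359 CPM in the members against 3.68 and 3.93 CPM. Prnd, which encodes the prion-like protein doppel, was 57.4-fold and 49.2-fold above and had no UMI in the 13 barcodes of E13.5, where the limit that 0 allows is 36.7 CPM. The next, Cyyr1, C130074G19Rik, Thsd1, Madcam1, Enpp3, Dipk2b, Dysf, Itga2 and Arap3, were between 23.8-fold and 66.9-fold above in 1 stage or the other. Madcam1, known for guiding lymphocytes to gut vessels, had 5, 13 and 8 UMIs.

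Between E14.5 and E15.5 most endothelial genes stayed within 2-fold. Of 4215 genes, 206 were at least 2-fold higher at E15.5 (4.89%) and 245 at least 2-fold lower (5.81%), and the median log2 ratio was 0.016. The counts past 2-fold of each list below stand beside these shares. With a minimum of 50 UMIs 33 were higher and 58 lower, of 1774. Without the 11 and 12 members with mesenchymal RNA, 168 were higher and 108 lower, of 2614, and only 54 and 31 of these were among the main calls. Higher calls were thus 45.7% of all calls with these members and 60.9% without them. In the members with an Xist UMI alone, 313 were higher and 251 lower, of 3048.

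Of the 21 other endothelial genes with enough UMIs, Ramp2 was past 2-fold higher and none was lower, and their median log2 ratio was 0.21. It was -0.08 without the members with mesenchymal RNA and 0.57 in those with an Xist UMI. Ramp2, the partner of Calcrl in the adrenomedullin receptor, had 331, 234 and 578 CPM. The log2 ratio of E15.5 to E14.5 was 1.30 (0.79 to 1.84), against 0.09 in the other barcodes. Ramp2 stayed past 2-fold without the member that held most of its UMIs (1.08) and without the members with mesenchymal RNA (1.07). Without the 2 members that held most it was at 0.90, and with every barcode weighted equally at 0.54.

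Among transcription factors, Klf2, which laminar flow induces, was the 1 of 15 past 2-fold. It had 97.9, 92.5 and 308 CPM, and a log2 ratio of 1.72 (0.95 to 2.60). The ratio was 0.53 in the other barcodes, where Klf2 had 31.1 and 61.3 CPM in the mesenchymal and 67.1 and 132 CPM in the myeloid barcodes, higher at E15.5 in both. One member held 22 of its 66 UMIs at E15.5 and another held 19. Without the first the ratio was 1.22, and without both it was 0.46, no longer past 2-fold. Klf2 had a UMI in 10 of 48 members and then in 13 of 53. The 6 genes of the flow list with enough UMIs had a median of 0.74, which was 0.26 without the members with mesenchymal RNA, 0.29 with equal weight per barcode and 1.27 in members with an Xist UMI. Klf2 and Piezo1, a stretch-gated channel, were the 2 past 2-fold. Piezo1 had 12 and 30 UMIs and a log2 ratio of 1.09 with a lower bound of 0.09, which was 0.91 without its top member and 0.78 without the members with mesenchymal RNA. Cav1, of caveolae, had 267 and 411 CPM, and Nos3, the endothelial nitric oxide synthase, had 10 and 8 UMIs.

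Klf2 is also an early response gene. Of 9 early response and stress genes with enough UMIs, Fos, Fosb and Ier2 were past 2-fold higher, beside 4.89% of all genes, and Hsp90aa1, a chaperone, was at -0.74. The median log2 ratio was 0.59 in the members and 0.47 in the other barcodes. In the members it was 0.0060 for those with an Xist UMI and 1.32 without those with mesenchymal RNA. One member held 27 of the 36 Fosb UMIs at E15.5. Members with mesenchymal RNA held 33 of the 36, and all 4 at E14.5. The part of dissociation in the Klf2 level was not tested.

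Single genes moved in the other lists. Vwf, stored in endothelial granules and high in veins, had 0, 2 and 21 UMIs, found in 0, 2 and 10 members. At E15.5, 2, 2 and 4 of the 21 lay in the 3 members that had both arterial genes Gja5 and Gja4, and these had no UMI of the venous gene Aplnr. The log2 ratio was 3.06 (1.14 to 6.31) and 2.44 without the 2 top members, and without the members with mesenchymal RNA under 20 UMIs of Vwf were left. Gja4, a gap junction gene of arterioles, had 0, 15 and 5 UMIs in 0, 8 and 5 members, with a log2 ratio of -1.76 (-3.62 to -0.27) and -1.07 without the member that held 6 of the 15, or -0.53 without the top 2. Apln, the ligand of Aplnr made by tip cells, had 4, 16 and 9 UMIs in the members, and the interval of its ratio of -1.03 (-2.41 to 0.21) included 0. Jam2, a junctional adhesion molecule, had 1, 4 and 16 UMIs and a ratio of 1.73 (0.15 to 3.82).

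Gpihbp1, which holds lipoprotein lipase on capillaries, had 2, 13 and 31 UMIs, with a ratio of 1.02 (0.06 to 2.09). Fabp4, a fatty acid binding protein of capillaries, had 18, 19 and 45 UMIs and a ratio of 1.01 (0.22 to 1.88). Rgcc, the last of the 3 capillary genes with enough UMIs, had 5, 23 and 30 UMIs and a ratio of 0.16, and Car4 of the same list had no UMI. With every barcode weighted equally the ratios were 0.55 for Gpihbp1 and -0.03 for Fabp4, without the top member 0.77 and 0.56, without the top 2 members 0.46 and -0.11, and without the members with mesenchymal RNA 0.71 and 0.75. The lower call of Notch2, at 20 and 5 UMIs, and that of Bmp6, at 21 and 7, came mostly from the members with mesenchymal RNA, which held 16 and 20 of the E14.5 UMIs. Id2, at 7 and 17 UMIs, was past 2-fold at 1.04 (-0.29 to 2.57) and at -0.03 in members with an Xist UMI.

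The basement membrane list had a median of -0.22 with none of 11 genes past 2-fold, and the median was 0.46 where barcodes with Tyrobp or Epcam were let in. Lama4 and Lamc1, laminin chains, had 544 and 798 CPM and 250 and 420 CPM. Hspg2, which encodes perlecan, had 457 and 299 CPM. The Vegf, angiopoietin, barrier, Wnt and leukocyte adhesion lists had none past 2-fold in either direction, with medians between -0.20 and 0.17.

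**Figure D4:**
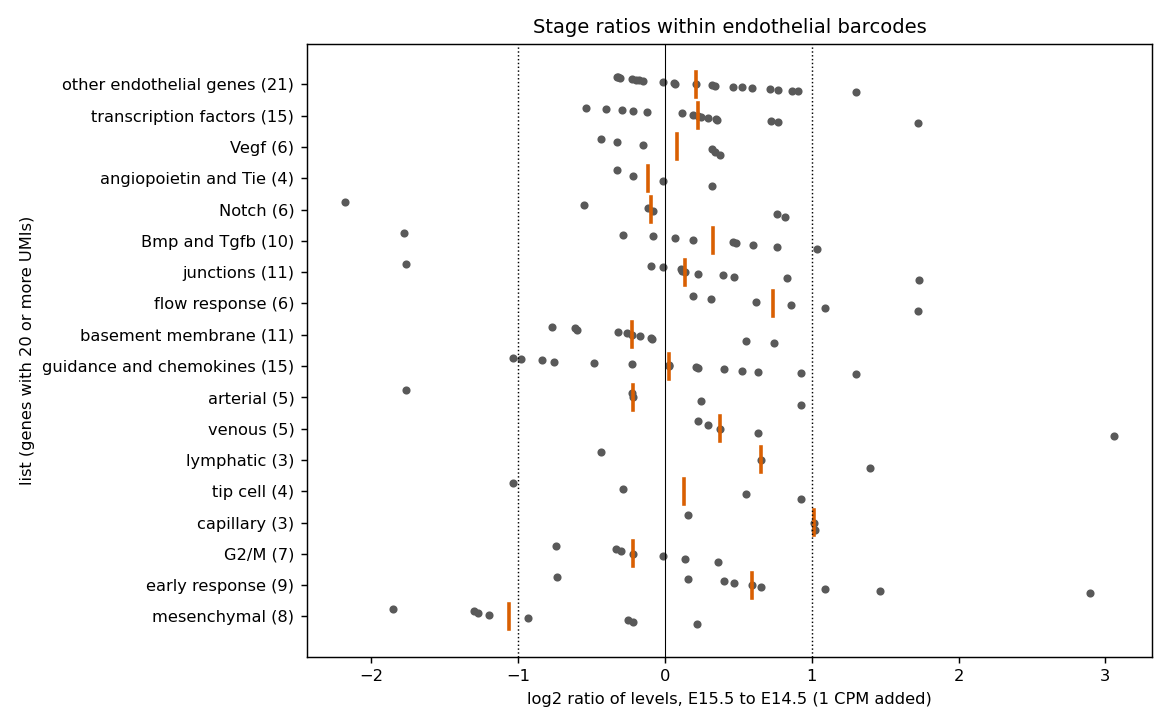
Log2 ratio of levels at E15.5 to E14.5 within endothelial barcodes (1 CPM added) of each gene with at least 20 UMIs, by list, with the list's median as an orange line, the number of genes in parentheses and dotted lines at 2-fold. Most points lie between the dotted lines. The medians furthest right of 0 are those of the capillary (3 genes), flow, lymphatic (3 genes) and early response lists, and the mesenchymal median lies left of -1.

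Among genes with at least 50 UMIs, several of the 10 largest differences in each direction came from few members. The higher genes were Camk1d, Limk2, Xist, Klf2, Galnt18, Fos, Adam19, Trpm3, Clic4 and Ramp2. One member held 36 of the 41 Limk2 UMIs at E15.5, 54 of the 100 Clic4 UMIs and 67 of the 182 Camk1d UMIs. Without the top member the log2 ratios were -0.95 for Limk2, 0.26 for Clic4 and 1.35 for Camk1d, and Camk1d was at 0.72 without the members with mesenchymal RNA. Camk1d, a calcium-dependent kinase, was also higher at E15.5 in the other barcodes (1.32), as was Xist (1.47). Galnt18, a glycosyltransferase, had 103 and 289 CPM in 13 and 22 members, and Adam19, a metalloproteinase, 81.6 and 224 CPM in 9 and 25. Their ratios of 1.48 (0.72 to 2.31) and 1.44 (0.59 to 2.40) stayed past 2-fold without the 2 top members, at 1.07 and 1.11, and in the other barcodes they were 0.18 and 0.16.

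The lower genes were Col2a1, Eya4, Lrrtm4, Nrg1, Col11a1, Arhgap24, Igfbp5, Sox6, Lama2 and Pclaf. Col2a1, Col11a1 and Sox6 are known from cartilage. Col2a1 had 0, 55 and 0 UMIs, and was at least 21.4-fold lower at E15.5 against the limit of 3 counts. The members with mesenchymal RNA held 53 of those 55 UMIs, and 97 of the 99 Col11a1 UMIs at E14.5. One member held 52 of the 55 Nrg1 UMIs. Without the members with mesenchymal RNA 9 of these 10 genes had under 20 UMIs left in the 2 stages. The tenth was Pclaf, a replication factor, with 59 and 13 UMIs left. In the members with an Xist UMI its log2 ratio was 0.02 in place of -2.05. Of the 8 mesenchymal genes with enough UMIs, Col1a1, Col1a2, Prrx1 and Runx2 were past 2-fold lower, and the list's sum in the members was 4352 and then 1959 CPM. Whether these barcodes held more than 1 cell was not tested beyond the doublet scores.

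The summed level of G2 and M phase genes, beside that of the other barcodes, depended in both later stages on the members with mesenchymal RNA. The 17 genes summed to 1349 and 1133 CPM in the members of the later stages and 1600 and 1299 CPM in the other barcodes. Without the members with mesenchymal RNA the sums were 1926 CPM (1665 to 2216) and 526 CPM (413 to 659), so that the first was above the other barcodes and the second further below them. The level differed widely between members. Among all of them the median member had 414 and 178 CPM and the highest 17263 and 8987 CPM. The intervals do not cover this spread between members. In the E13.5 library the sums were 2558 CPM (2223 to 2929) and 1434 CPM. None of the 7 with enough UMIs was past 2-fold, and their median was -0.22, with -1.44 without the members with mesenchymal RNA and 0.60 in those with an Xist UMI. At least 3 of the 17 had a UMI in 8 of 13, 18 of 48 and 14 of 53 members. In barcodes thinned to 1500 UMIs the shares were 16.2% (6.19 to 32.0%) and 16.7% (6.97 to 31.4%) in the later stages, beside 17.7% and 13.6% of the mesenchymal barcodes. Top2a, which untangles replicated DNA, had 484 and 289 CPM, and 1 member held 24 of its 62 UMIs at E15.5.

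Vessel types were read from genes in single barcodes. UMIs of at least 2 of 11 arterial genes were found in 21 of 48 members (43.8%, 29.5 to 58.8%) and 25 of 53 (47.2%, 33.3 to 61.4%). At least 2 of 7 venous genes were found in 31 (64.6%, 49.5 to 77.8%) and 32 (60.4%, 46.0 to 73.5%). For both lists the stages overlapped. Thinned to 1500 UMIs, the shares were 29.7% and 21.4% for arterial and 48.6% and 47.6% for venous genes. In thinned mesenchymal barcodes they were 2.26% and 1.51%, and 2.55% and 2.49%. Both lists hold genes that many members carried, such as Mecom, Efnb2 and Nr2f2, so these shares are ranges and not vessel types.

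Tip cell genes, 2 or more of 10, were in 17 of 48 and 13 of 53 members, and capillary genes, 2 or more of 6, in 6 and 9. After thinning these shares were 18.9% and 4.76%, and 2.70% and 11.9%. Of 6 genes of haemogenic endothelium, Ptprc, Gfi1, Gfi1b and Spi1 had no UMI in any member. Kit had 16 and 14 UMIs. Runx1 had 9 and 25, of which members with mesenchymal RNA held 9 and 21. Both were found together in 2 and 3 members, and in none after thinning.

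A narrower set of genes, chosen after the values were seen, separated a few members. Gja5, a gap junction gene of arteries, had a UMI in 3 members of each later stage, and 2 and 3 of these also had Gja4. At E15.5 members with mesenchymal RNA held 3 of the 4 Gja5 UMIs. One E14.5 member held 9 Gja5, 6 Gja4 and 10 Efnb2 UMIs. Bmx, a kinase of arterial endothelium, had 0, 0 and 8 UMIs, too few for a ratio, and members with mesenchymal RNA held 5 of the 8. Of the members with Sox17, 8 of 13 and 7 of 15 also had the venous gene Aplnr, so that Sox17 and Aplnr did not mark separate members at this depth. The shares of Aplnr without Sox17 were 48.6% and 44.7%, beside 61.5% and 46.7% with it, at median totals of 2450 and 2318.5 UMIs without Sox17 and 3907 and 4538 with it.

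At least 2 of 7 lymphatic genes were in 20.8% and 17.0% of members, and in 2.70% and 9.52% after thinning, beside 1.70% and 0.801% of thinned mesenchymal barcodes. In the E15.5 library the more restricted genes were found in few members. Prox1, the factor that sets lymphatic fate, had 2, 1 and 14 UMIs in the members, Reln 0, 0 and 8, and Mmrn1, a lymphatic matrix protein, 1, 9 and 28. At E15.5, 6 of 53 members had Prox1, and 4 of these had Mmrn1, against 8.51% of the rest, at median totals of 4555 UMIs with Prox1 and 2671 without. One member held 6 Prox1, 6 Reln, 12 Mmrn1 and 2 Flt4 UMIs, and another 4, 1, 2 and 3. These 2 members had 4 and 5 of the rule genes but no UMI of Emcn, and Lyve1, a receptor of many lymphatic vessels, had no UMI in any member. Pdpn, also on the lymphatic list, had 4, 6 and 1 UMIs in all members and none in these 2. The other 2 members with Prox1 and Mmrn1 held 1 Prox1 UMI each, and 5 and 1 of Mmrn1. They also held 23 and 8 UMIs of Emcn, 3 each of Aplnr, and 3 and 4 of Vwf. At E14.5 Mmrn1 had a UMI in 6 members, none of which had Prox1. The 1 member with Prox1 at E14.5 had none of Mmrn1, Reln and Flt4.

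**Figure D5:**
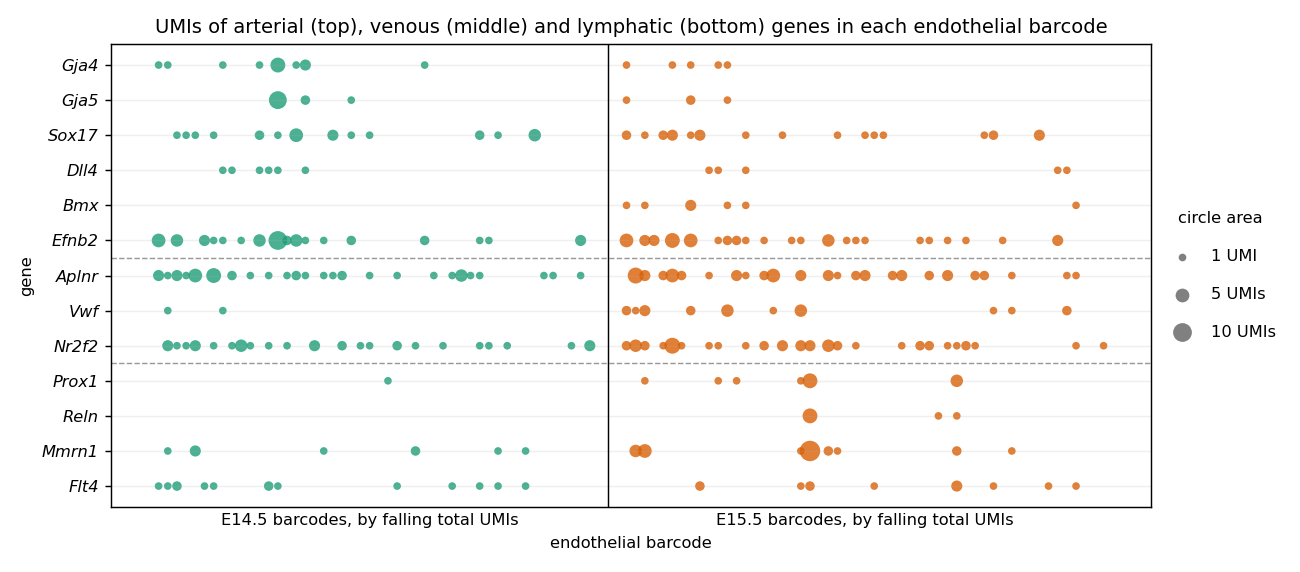
UMIs of 6 arterial, 3 venous and 4 lymphatic genes (rows) in each of the 48 endothelial barcodes of E14.5 and the 53 of E15.5 (columns, ordered by falling total UMIs within a stage). Circle area grows with the number of UMIs. Aplnr, Nr2f2 and Efnb2 are spread over many members, while Gja5 is in 3 members of each stage and Prox1 with Reln in 2 members at E15.5.

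The 13 members at E13.5 differed from the later ones in the RNA beside the endothelial genes. The 8 neuronal genes summed to 1714 CPM in them, against 250 and 420 CPM in the later members and 2821 CPM in the other E13.5 barcodes. One of the 13 held 26.5% of their UMIs. The 22 other endothelial genes summed to 2069 CPM at E13.5, against 4488 and 5149 CPM later. The part of the neuronal RNA in this lower level was not tested.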

How the data were processed

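Raw UMI counts per gene and barcode were deposited by the authors as 10x matrices, made with Cell Ranger 6.1.2 on mm10 per the submitters' processing notes. The counting strand and annotation are not given in the sources used here. From them, barcodes were chosen as described and their UMIs were summed per stage and scaled to CPM (python 3.11.15, scipy 1.17.1), with exact Poisson, Clopper-Pearson and conditional ratio 95% intervals. Count models were not fitted, since each stage is 1 library. Stages were compared by log2 ratios with 1 CPM added. The ratio code was tested on simulated data.

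Named genes were all rule genes and the 22 others, the 3 highest and 3 lowest ratios of each role list, the 15 genes of no list furthest above other barcodes, and the 10 largest rises and falls among genes with 50 UMIs; other genes were picked after their values were seen. Members and lists were chosen with earlier results of these data known. Mesenchymal and mural barcodes held 3 or more of their list's genes and no Tyrobp or Epcam, and a barcode could be in both groups. Myeloid barcodes held Tyrobp and other myeloid genes, and epithelial ones held Epcam and other epithelial genes but no Tyrobp. All these groups were taken from barcodes that were not members, so their low levels of endothelial genes follow in part from the choice. Doublets were kept. Scrublet (scanpy 1.11.5) called 0, 4 and 1 barcodes, below the 109, 25 and 56 set by an assumed rate of 0.8% per 1000 barcodes. Whether its automatic threshold worked was not tested. Removing the highest scores (109, 25 and 56) was an alternative that dropped 1, 3 and 5 members. The libraries shared 3, 1 and 1 barcodes. Thinning was to 1500 UMIs. Alternatives covered the gate, filters, added CPM, weighting and scaling.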

Additional observations from a re-analysis of the deposited data

How the results depend on the processing

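No paired analysis was possible because each stage is 1 library and the labels number no replicates. Alternatives with an Xist UMI or without a gene's top 1 or 2 members were chosen after seeing the data, as were the lists given medians; the cause of a shift was not tested except where fewer genes or barcodes enter by construction. Depth limits single genes: at 20 UMIs an interval spans more than 2-fold.

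The share of barcodes was 1.92% at E14.5 with 4 rule genes, and at E15.5 2.95% with 2 rule genes and 2.68% of barcodes with at least 1000 genes. The genes 4-fold above other barcodes numbered 314 without a UMI minimum and 114 with 50. The genes higher and lower at E15.5 numbered 2775 and 3191 without a minimum, 33 and 58 with 50, and 360 and 427 with Tyrobp and Epcam ignored. The higher ones numbered 135 with 10 CPM added, 373 (beside 300 lower) with equal weight per barcode and 313 with an Xist UMI, and the lower ones 108 without members with mesenchymal RNA.

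List medians with Tyrobp and Epcam ignored were 0.82 for other endothelial genes, 0.72 for transcription factors, 0.51 for Vegf, 0.61 for junctions, 0.46 for basement membrane, 0.60 for arterial and 0.84 for tip cell genes. With an Xist UMI they were 0.57, 0.65, -0.03 for Bmp and Tgfb, 1.27 for flow, 0.0098 for basement membrane, 0.98 for venous, 0.60 for G2/M and 0.0060 for early response genes. Without members with mesenchymal RNA they were -0.081 for other endothelial, -0.16 for Bmp and Tgfb, -1.44 for G2/M and 1.32 for early response genes. The early response median was 1.03 with 2 rule genes, G2/M -0.79 without the highest doublet scores, Bmp and Tgfb -0.13 and guidance 0.23 with equal weight, and Vegf 0.33 with 50 UMIs and -0.18 without a minimum.

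With 3 genes in place of 2 the E14.5 and E15.5 shares were 27.1% and 20.8% for arterial, 29.2% and 35.8% for venous, 4.17% and 7.55% for lymphatic and 14.6% and 13.2% for tip cell genes, and 5.66% for capillary genes at E15.5. Thinned, they were 21.4% for arterial and 4.76% for tip cell genes at E15.5, and at E14.5 48.6%, 2.70%, 18.9% and 2.70% for venous, lymphatic, tip cell and capillary genes.

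Genes past 2-fold changed sign as follows. Id2 was at -0.016 with Tyrobp and Epcam ignored and -0.034 with an Xist UMI, Trpm3 at -0.22 with Tyrobp and Epcam ignored, Pclaf at 0.023 with an Xist UMI, Fabp4 at -0.032 with equal weight, and without the top member Limk2 was at -0.95 and Nrg1 at 1.39. Without the 2 top members Fabp4 was at -0.11, Limk2 at -1.23, Trpm3 at -0.63 and Nrg1 at 1.80. Of 1350 values of the 128 named genes, 1227 moved by less than their counting error and 112 by more without changing the sign of a gene past 2-fold. Some of the 112 took a gene from past 2-fold to within it. Klf2 without its 2 top members and Clic4 without its top member, given above, are examples. The sign differed in 190 values of 71 genes, 179 of them from genes within 2-fold.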
